A study of Mus musculus with 9 samples.

Results

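The genes described here are 10 regulators of mTORC1, the protein kinase complex that couples amino acid supply to cell growth: Castor1, Sesn1, Sesn2, Ddit4, Deptor, Rragc, Rragd, Flcn, Fnip1 and Eif4ebp1. They were taken by symbol from the deposited expression table, so they are 10 of its 54876 genes, and each symbol had 1 entry. Their values came from MIN6 cells, an insulinoma line of C57BL/6 mouse origin per the labels that serves as a model of pancreatic beta cells. The cells were kept for 24 h in medium with 0.1 times (low arginine), 1 time (standard arginine) or 20 times (high arginine) the usual arginine concentration, and no group carried any other named treatment or genetic change. Each medium had 3 libraries of total RNA. The labels do not say whether these were separate cultures, and the p-values therefore reflect only how far these libraries spread, which may be technical.

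mTORC1 is recruited to the lysosome by Rag GTPases, which work as pairs of RagA or RagB with RagC or RagD and are anchored there by the Ragulator complex. GATOR1 switches RagA and RagB off, and GATOR2 opposes GATOR1. Arginine and leucine act on this switch through cytosolic sensors: CASTOR1 binds arginine and the Sestrins bind leucine, and each holds GATOR2 back when its amino acid is scarce. Folliculin (Flcn) with its partner Fnip1 acts on RagC and RagD. Stress signals add further inhibitors, Ddit4 through the TSC complex and Deptor by binding mTOR itself. Eif4ebp1 encodes 4E-BP1, a substrate that blocks the cap-binding protein eIF4E until mTORC1 phosphorylates it. Arginine is also a stimulus of insulin secretion in beta cells. The measurements are of transcripts, so neither the phosphorylation of these proteins nor mTORC1 activity was measured.

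Expression is in FPKM, fragments scaled to gene length and to library size, as the authors deposited it. Reads in genes numbered 21550637 to 26300872 per library. The library size behind the FPKM was not equal to these reads. It was 1.05 to 1.08 times the reads in genes in low arginine and 0.962 to 1.02 times in the other media. The 14 beta cell markers summed to 79300 to 80800 FPKM in low arginine, 74600 to 83200 FPKM in standard arginine and 76200 to 78700 FPKM in high arginine, with Ins2, an insulin gene, the highest. Markers of stromal cells summed to at most 0.213 FPKM and those of immune and endothelial cells to at most 0.576 FPKM in any library. The 8 markers of other islet cells, led by Sst (somatostatin) at a mean of 7100 FPKM, summed to 9060 to 11600 FPKM in low arginine, 6320 to 7200 FPKM in standard arginine and 6620 to 6800 FPKM in high arginine. Of the 4 of these that were tested, Sst and Ppy were higher in low against standard arginine, at log2 changes of 0.75 and 0.20, and Ttr and Gcg lower, at -1.62 and -0.62. Of the 13 tested beta cell markers, 5 were called higher and 5 lower (calls are defined below), with Nkx6-1 at 1.5 and Pcsk1 at -1.80. These marker counts stand beside 62.2% of all genes called in low against standard arginine, 30.3% higher and 31.9% lower. The part of these marker changes in the other results was not tested. A gene was tested when it reached 1 FPKM in at least 3 of the 9 libraries, which 12300 genes did, among them 9 of the 10 regulators. Castor1 lay below this level. Changes are given as differences of log2(FPKM + 1), a scale on which low genes change less than their FPKM do. A change was called where limma gave an adjusted p under 0.05 (Benjamini-Hochberg, over the 12300 genes).

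In low against standard arginine, 4 of the 9 tested regulators were higher (Sesn2, Deptor, Eif4ebp1 and Flcn), 3 were lower (Sesn1, Ddit4 and Rragd) and 2 did not pass the test (Rragc and Fnip1). Of all genes tested 62.2% were called, 30.3% higher and 31.9% lower, so a call alone sets few genes apart in this contrast. The median log2 change of the 9 regulators was 0.24, beside 0.00 over all genes. In high against standard arginine 0 of the 9 were called. Of all genes 0.309% were called, 0.138% higher and 0.171% lower. An unadjusted limma p under 0.05 was found for 0 of the 9, beside 1762 of all 12300 genes.

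**Figure D1:**
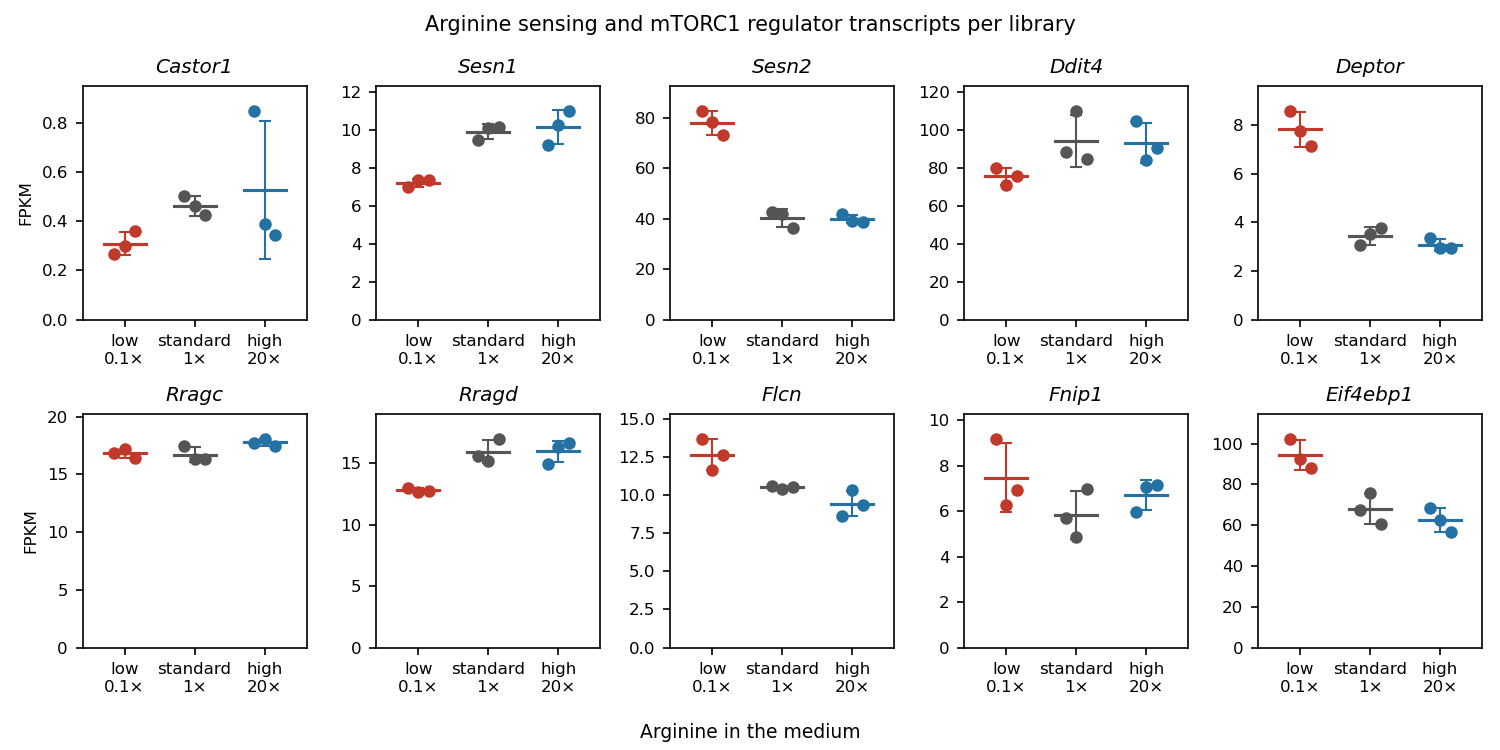
Expression of the 10 regulators in each library, in FPKM on a linear axis that starts at 0 and differs between panels, by arginine medium from low to high; points are libraries and bars are means of 3 with SD. The low arginine points lie apart from the standard ones in every panel except those of Rragc and Fnip1, and the high arginine points overlap the standard ones in every panel except that of Flcn. The share of all genes with such separation was not determined. Neither this separation nor that given for single genes below is therefore read as a result about them.

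The sequences upstream of the start site are shown for 5 of the genes because they hold, or lack, the letters that transcription factors of amino acid stress, growth control and hypoxia are known to bind. They are the 250 bases before the RefSeq start on GRCm38.p6, read in the direction of the gene, with matches in capitals. Sesn2 is the riser with the largest change for which the RefSeq table holds an entry, and Ddit4 is a known target of both ATF4 and HIF. Rragc and Rragd are a pair of paralogs of which only the second was called, and Fnip1 shares its match with Rragc. 
Sesn2, chr4:132510457-132510706, minus strand: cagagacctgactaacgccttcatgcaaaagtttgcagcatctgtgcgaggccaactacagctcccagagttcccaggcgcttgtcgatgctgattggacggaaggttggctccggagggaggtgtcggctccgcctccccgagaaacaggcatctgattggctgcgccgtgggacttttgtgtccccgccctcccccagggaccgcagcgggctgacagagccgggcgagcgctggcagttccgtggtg
Ddit4, chr10:59951771-59952020, minus strand: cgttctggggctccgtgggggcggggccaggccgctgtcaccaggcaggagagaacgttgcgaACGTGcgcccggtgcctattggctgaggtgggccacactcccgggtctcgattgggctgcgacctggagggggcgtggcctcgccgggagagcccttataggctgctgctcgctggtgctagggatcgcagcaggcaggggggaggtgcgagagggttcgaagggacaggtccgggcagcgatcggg
Rragc, chr4:123917183-123917432, plus strand: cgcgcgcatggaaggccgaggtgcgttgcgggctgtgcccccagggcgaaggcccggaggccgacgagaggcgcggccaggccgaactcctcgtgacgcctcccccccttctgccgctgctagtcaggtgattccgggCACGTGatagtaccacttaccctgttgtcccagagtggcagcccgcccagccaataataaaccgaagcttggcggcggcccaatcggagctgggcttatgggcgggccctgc
Rragd, chr4:32982748-32982997, plus strand: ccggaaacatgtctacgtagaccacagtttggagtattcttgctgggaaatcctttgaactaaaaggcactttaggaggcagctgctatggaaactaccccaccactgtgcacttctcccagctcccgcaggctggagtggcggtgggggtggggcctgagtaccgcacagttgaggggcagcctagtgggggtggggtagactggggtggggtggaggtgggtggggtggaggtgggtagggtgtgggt
Fnip1, chr11:54437929-54438178, plus strand: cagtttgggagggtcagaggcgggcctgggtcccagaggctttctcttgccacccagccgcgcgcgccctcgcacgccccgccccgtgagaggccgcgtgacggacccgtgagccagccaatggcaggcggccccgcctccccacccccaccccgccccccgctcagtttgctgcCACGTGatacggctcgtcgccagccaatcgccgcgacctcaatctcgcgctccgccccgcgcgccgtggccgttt

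The 3 motifs were searched on both strands over 300 bases, from 250 before to 50 after the start, in the 9 promoters of the 8 regulators with an entry; Deptor and Eif4ebp1 have none in the table and Sesn1 has 2. TGATGNAA, the core of the ATF4 amino acid response element, was in 0 of the 8 genes, as against 3.97% of all 32851 promoters. CACGTG, the E-box read by MYC and by the MiT/TFE factors, was in 2 of 8, beginning 112 bases before the start of Rragc and 75 before that of Fnip1, as against 7.15% of all promoters. ACGTG, the core of the hypoxia response element, is contained in CACGTG and was in 4 of 8, namely Ddit4, Castor1, Rragc and Fnip1, as against 19.6% of all. In Ddit4 it begins 187 bases before the start. A match describes letters only, and no match says only that these letters are not in this window.

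Among the amino acid sensors, Sesn2 was higher and Sesn1 lower in low against standard arginine, and Castor1 was too scarce for the test over all genes. Castor1, the arginine sensor (chromosome 11, 4218225 to 4222409, plus strand; GRCm38, as all coordinates here), was barely detected. It had 0.266, 0.300 and 0.361 FPKM in low arginine, 0.502, 0.460 and 0.424 FPKM in standard arginine and 0.847, 0.387 and 0.344 FPKM in high arginine. Between 11 and 31 reads per library lie behind these values. In FPKM each low arginine library was below each standard one, and 1 high arginine library stood above all others. The reads overlap, at 11, 13 and 16 in low arginine and 19, 15 and 15 in standard arginine. The difference in low against standard arginine was -0.16 on the log2 scale with an exact two-sided permutation p of 0.1, the smallest that 3 against 3 libraries can give. A limma fit with no filter on low values gave the same -0.16 with an adjusted p of 0.397. In high against standard arginine the difference was 0.05 (exact permutation p = 1).

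Its paralog Castor2, which binds GATOR2 but is not known to sense arginine, was the more abundant of the pair in each of the 9 libraries. Castor2 had 7.85, 7.40 and 7.21 FPKM in low arginine, against 17.8, 18.5 and 16.6 FPKM in standard arginine and with 20.1, 17.7 and 17.5 FPKM in high arginine. It fell in low against standard arginine by 1.13 on the log2 scale (SE 0.068, adjusted p = 2.69e-07), the same direction and call in each of the 21 settings in which it was tested. Within a library, the ratio of Castor2 to Castor1 was 24.7 ± 4.76 in low arginine, 38.3 ± 2.56 in standard arginine and 40.1 ± 14.4 in high arginine (SD over 3 libraries each). The transcript of Slc38a9, the lysosomal arginine sensor, was also below the filter, at 0.535 ± 0.0293 FPKM in low arginine, 0.414 ± 0.0686 FPKM in standard arginine and 0.363 ± 0.0206 FPKM in high arginine (SD, n = 3 each).

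Sesn2 and Sesn1, the leucine sensors, went opposite ways. Sesn2 (chromosome 4, 132492032 to 132510501, minus strand), also induced by ATF4, had 82.8, 78.4 and 73.1 FPKM in low arginine, against 42.7, 41.9 and 36.2 FPKM in standard arginine. The groups lie far apart, and the mean was 1.94 times as high in low arginine, a log2 change of 0.94 (SE 0.074, adjusted p = 1.85e-06). Sesn1 (chromosome 10, 41809935 to 41908424), known as a target of p53, had 6.98, 7.35 and 7.35 FPKM in low arginine, against 9.46, 10.1 and 10.2 FPKM in standard arginine. Every low arginine library was below every standard one, a log2 change of -0.41 (SE 0.067, adjusted p = 0.000353). Sesn3, the remaining Sestrin, followed Sesn1 with a log2 change of -0.35 (SE 0.086, adjusted p = 0.00491). In a bulk library a change in each cell and a change in the share of cells that express a gene cannot be told apart.

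The opposite changes altered the mix of Sestrin transcripts. The ratio of Sesn2 to Sesn1 within a library was 10.8 ± 0.964 in low arginine and 4.07 ± 0.477 in standard arginine (SD, n = 3 each; exact permutation p = 0.1, the smallest possible, with no overlap). In high arginine it was 3.96 ± 0.527, which overlapped standard arginine (exact permutation p = 0.8). Summed over the 3 Sestrins, a sum chosen after the values were seen, the level was 91.5 ± 5.47 FPKM in low arginine, 58.3 ± 2.93 FPKM in standard arginine and 59.3 ± 1.35 FPKM in high arginine. Sesn2 made up 85.4 ± 0.202%, 69.0 ± 2.65% and 67.3 ± 1.30% of that sum in low, standard and high arginine.

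**Figure D2:**
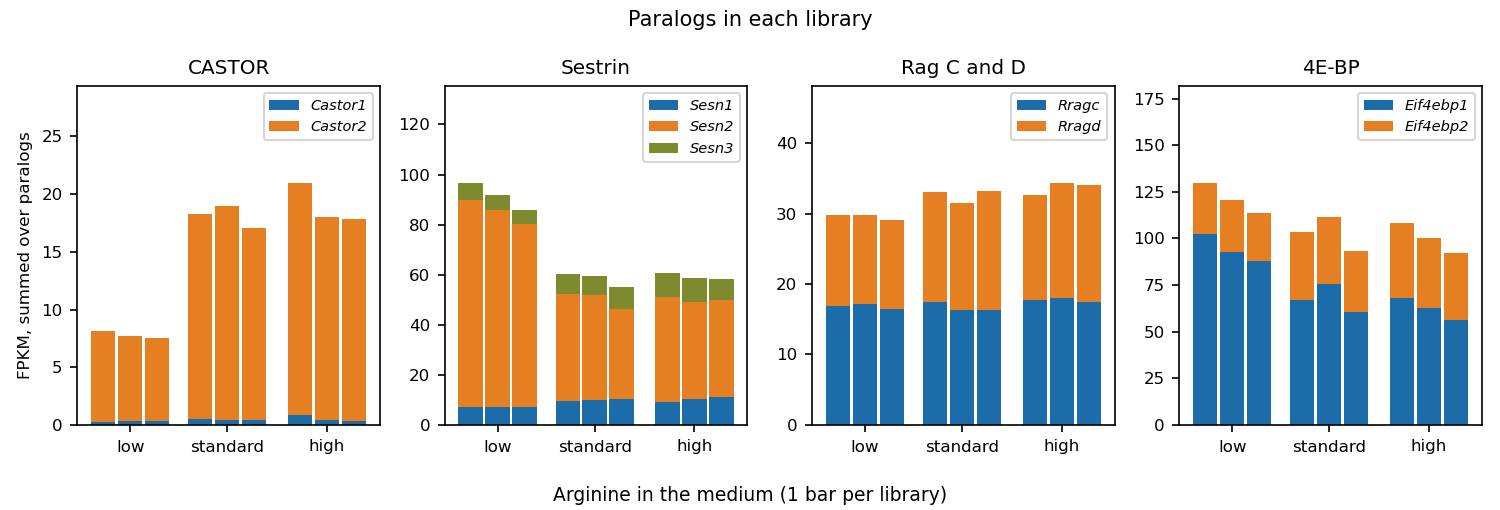
FPKM of paralogs stacked within each library, 1 bar per library, by arginine medium from low to high, on axes that start at 0 and differ between panels. The Sestrin bars are tallest in low arginine through Sesn2, the CASTOR bars are nearly all Castor2 and shortest in low arginine, and the Rragc part of the Rag bars is much the same in each medium.

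Of the stress-linked inhibitors, Deptor rose and Ddit4 was slightly lower. Deptor (chromosome 15, 55112317 to 55259271), which binds and inhibits mTOR in both of its complexes, had 8.58, 7.78 and 7.15 FPKM in low arginine, against 3.06, 3.51 and 3.79 FPKM in standard arginine. Its mean was 2.27 times as high, a log2 change of 0.99 (SE 0.084, adjusted p = 3.19e-06). Deptor and Sesn2 had the largest changes of the 9, and their order turned with quantile normalization (Deptor 0.95, Sesn2 1.10) and without standard replicate 1 (Deptor 0.92, Sesn2 0.98). Among all 12300 genes Deptor ranked 246 and Sesn2 290 by the size of the rise. Both were called in every setting in which they were tested, which includes leaving out each library and a fold of at least 1.5; a filter at a mean of 5 FPKM left Deptor untested. In the annotation 3.41% of Deptor's exon bases overlap Gm9920 on the other strand, at 0.181 FPKM. Whether the counting used strand is not stated.

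Ddit4 (chromosome 10, 59949669 to 59951834, minus strand), also called REDD1, had 79.9, 71.2 and 75.9 FPKM in low arginine, against 88.6, 110.1 and 84.7 FPKM in standard arginine. The groups did not overlap, but they lay close together and 1 standard library stood well above the rest. The log2 change was -0.31 (SE 0.105, adjusted p = 0.0253). This call is the least secure of the 7, being made in 14 of 21 settings. Without standard replicate 2 the log2 change was -0.20 (adjusted p = 0.0957), without low replicate 2 -0.27 (adjusted p = 0.0848) and without low replicate 3 -0.31 (adjusted p = 0.0553). With quantile normalization it was -0.12 (adjusted p = 0.299) and in TPM -0.19 (adjusted p = 0.116).

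Ddit4 can be read beside lists of the stress programs it is known to belong to, written with earlier results of these data known. Counts from the lists stand beside 62.2% of all genes called in low against standard arginine, 30.3% higher and 31.9% lower. Of the 27 genes in the ATF4 list, 22 were higher and 1 was lower in low arginine, and the lower gene was Ddit4. The list holds Atf4 itself beside its targets, and the regulators Sesn2 and Eif4ebp1 are among its higher genes. The median log2 change of the list was 0.89. Trib3, an ATF4 target and inhibitor of AKT, had 143.7 ± 6.43 FPKM in low arginine and 37.5 ± 3.54 FPKM in standard arginine (SD, n = 3 each), and Ddit3, which encodes CHOP, had 140.6 ± 2.71 FPKM in low arginine and 30.6 ± 3.58 FPKM in standard arginine. The transcript of Atf4 itself was not called, with 235.7 ± 6.28 FPKM in low arginine and 257.6 ± 14.9 FPKM in standard arginine (log2 change -0.13, adjusted p = 0.0783). Its direction depended on scaling, for with quantile normalization it was called higher, at 0.15 (adjusted p = 0.00215). It was called lower with array weights (-0.16, adjusted p = 0.0148) and without standard replicate 3 (-0.17, adjusted p = 0.0163). Of 16 tested HIF targets, 14 were lower and 2 higher, with a median of -1.49, and Ddit4 had the smallest fall of the 14. Of 16 tested p53 targets, 7 were higher and 6 lower, with Sesn2 among the higher and Sesn1 among the lower. The Ddit4 paralog Ddit4l was at 3.47 ± 0.205 FPKM in low arginine and 4.14 ± 0.182 FPKM in standard arginine (log2 change -0.20, adjusted p = 0.0124). That call was lost in TPM, at -0.12, and without low replicate 3.

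In the Rag and folliculin branch, Rragd was lower, Flcn was higher and Rragc and Fnip1 were not called. Rragd (chromosome 4, 32983037 to 33022180) had 13.0, 12.7 and 12.7 FPKM in low arginine, against 15.6, 15.2 and 17.0 FPKM in standard arginine, a log2 change of -0.29 (SE 0.060, adjusted p = 0.00158). Its low arginine libraries lay within a narrow band below the standard ones. In TPM the change was -0.18 (adjusted p = 0.0516). Rragc (chromosome 4, 123917446 to 123936997) had 16.9, 17.2 and 16.4 FPKM in low arginine, against 17.5, 16.4 and 16.3 FPKM in standard arginine. These values overlap, with a log2 change of 0.01 and a 95% interval of -0.10 to 0.12. Rragc was called only in TPM, at 0.13 (adjusted p = 0.0408), where the median of all genes was itself at 0.11. The ratio of Rragd to Rragc was 0.761 ± 0.0218 in low arginine and 0.954 ± 0.0788 in standard arginine (SD, n = 3 each; exact permutation p = 0.1, the smallest possible). In the annotation 7.90% of Rragc's exon bases overlap a gene on the other strand at 0.092 FPKM.

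Flcn (chromosome 11, 59791408 to 59810016, minus strand) had 13.7, 11.6 and 12.7 FPKM in low arginine, against 10.6, 10.4 and 10.5 FPKM in standard arginine. All low arginine values were above the tightly grouped standard ones, a log2 change of 0.24 (SE 0.073, adjusted p = 0.0136). Without low replicate 1, the highest, it was 0.19 (adjusted p = 0.0518). Fnip1 (chromosome 11, 54438199 to 54518235) had 9.18, 6.28 and 6.93 FPKM in low arginine, against 5.69, 4.88 and 6.97 FPKM in standard arginine. Here the groups overlap and the spread within each is wide, with a log2 change of 0.30 (SE 0.136, adjusted p = 0.0745). Fnip1 was called without low replicate 2 (0.40, adjusted p = 0.0342), without standard replicate 3 (0.42, adjusted p = 0.0234), in TPM (0.45, adjusted p = 0.037), with array weights (0.27, adjusted p = 0.0365) and with voom weights (0.34, adjusted p = 0.0363). Without low replicate 1 its change was 0.16 (adjusted p = 0.278) and without standard replicate 2 it was 0.20 (adjusted p = 0.254). Fnip2, the alternative partner of folliculin, had 2.74 ± 0.205 FPKM in low arginine and 2.67 ± 0.138 FPKM in standard arginine (SD, n = 3 each; adjusted p = 0.775).

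Among the substrates, Eif4ebp1 (chromosome 8, 27260329 to 27276674), which is also a known ATF4 target, had 102.4, 92.5 and 88.1 FPKM in low arginine, against 67.2, 75.6 and 60.7 FPKM in standard arginine. The groups did not overlap, and the mean was 1.39 times as high, a log2 change of 0.47 (SE 0.094, adjusted p = 0.00132). Its paralog Eif4ebp2 went the other way, with 26.9 ± 1.46 FPKM in low arginine and 34.8 ± 2.19 FPKM in standard arginine (log2 change -0.36, adjusted p = 0.0009). Eif4ebp1 made up 77.7 ± 1.05% of the 4E-BP transcripts in low arginine, 66.0 ± 1.58% in standard arginine and 62.3 ± 0.918% in high arginine (SD, n = 3 each), a share chosen after the values were seen. The transcript of their target Eif4e, the cap-binding protein, rose as well, with 32.4 ± 2.71 FPKM in low arginine and 18.9 ± 1.29 FPKM in standard arginine (log2 change 0.74, SE 0.072, adjusted p = 7.9e-06).

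**Figure D3:**
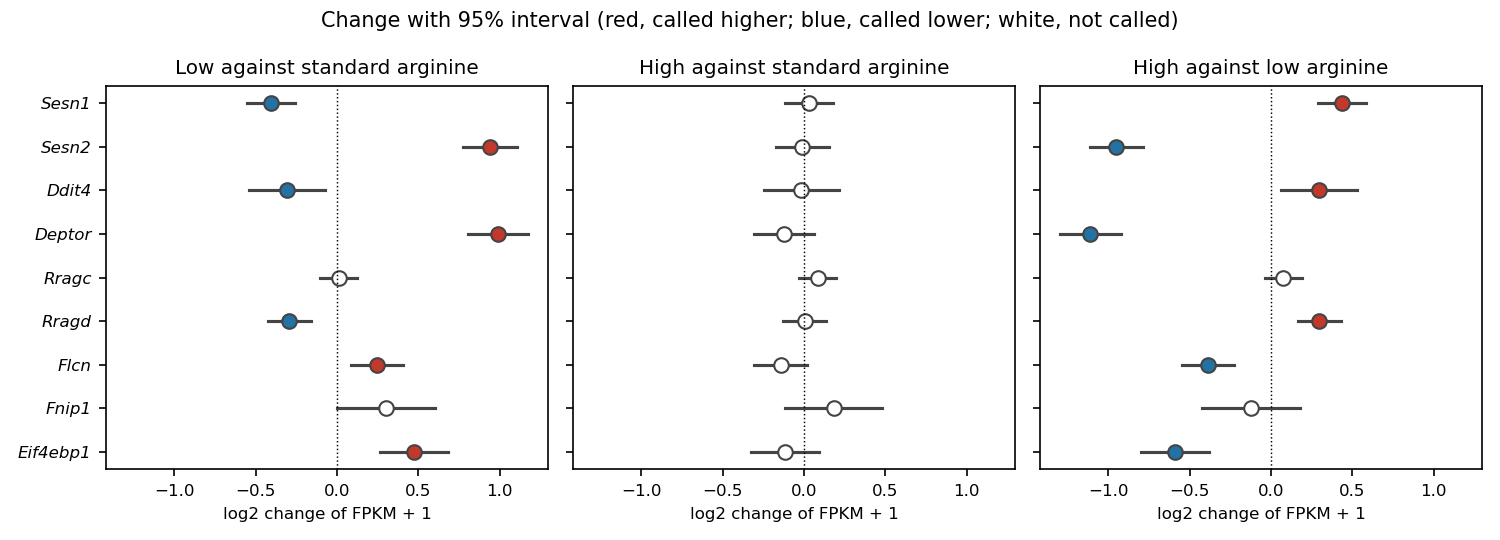
Log2 change on the log2(FPKM + 1) scale, with 95% intervals from limma, of the 9 tested regulators, with a panel for each pair of media (low and standard, high and standard, high and low arginine). Deptor and Sesn2 lie near 1 in low against standard arginine and Sesn1, Ddit4 and Rragd below 0, while in high against standard arginine every interval spans 0.

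The order of levels differed between media as well. In standard arginine Ddit4 was the most abundant of the 10 at 94.5 ± 13.7 FPKM, followed by Eif4ebp1 at 67.8 ± 7.45 and Sesn2 at 40.3 ± 3.52 FPKM (SD, n = 3 each). Below them came Rragc at 16.7, Rragd at 15.9, Flcn at 10.5, Sesn1 at 9.92, Fnip1 at 5.85, Deptor at 3.46 and Castor1 at 0.462 FPKM, where the values of Rragc and Rragd overlapped. In low arginine Eif4ebp1 led at 94.3 FPKM, the values of Sesn2 and Ddit4 overlapped at 78.1 and 75.7 FPKM, as did those of Rragd and Flcn at 12.8 and 12.7 FPKM, and Deptor, Fnip1 and Sesn1 formed an overlapping group at 7.84, 7.46 and 7.23 FPKM. In high arginine the order was that of standard arginine, except that Sesn1 at 10.2 FPKM and Flcn at 9.44 FPKM overlapped and changed places.

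The wider pathway was read from lists of each complex, also written with earlier results known, in low against standard arginine. Each count stands beside 62.2% of all genes called, 30.3% higher and 31.9% lower. Of 7 tested GATOR1 and KICSTOR genes, 2 were higher and 2 lower. Depdc5, the GATOR1 subunit that contacts the Rag GTPases, was lower by a log2 change of -0.64 (SE 0.067), and Itfg2, a subunit of KICSTOR, which tethers GATOR1 to the lysosome, was higher at 1.05 (SE 0.072). Of 5 GATOR2 genes 0 were higher and 3 lower, with Wdr24 at -0.62, Sec13 at -0.30 and Wdr59 at -0.25. Of 9 Rag and Ragulator genes 1 was higher and 5 were lower, and the 5 include Rragd itself, Lamtor2 at -0.73, Lamtor5 at -0.72 and Rraga, the partner of Rragc and Rragd, at -0.34. Rragb was not called, at -0.02 (adjusted p = 0.827).

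Of 8 stress-induced inhibitors of mTORC1, a list that holds Sesn1, Sesn2 and Ddit4, 3 were higher and 4 lower, and these counts and those that follow stand beside 62.2% of all genes called. Of 5 genes of the TSC complex and Rheb, 3 were higher and 0 lower. Rheb, the GTPase that activates mTORC1, had 25.5 ± 2.57 FPKM in low arginine and 17.8 ± 1.33 FPKM in standard arginine (log2 change 0.50, SE 0.084, adjusted p = 0.000442). Its paralog Rhebl1 was at 0.72 and Tsc1, which stabilises the TSC complex that switches Rheb off, at 0.45, whereas Tsc2 was not called (-0.05, adjusted p = 0.614). Of 9 tested subunits and partners of the mTOR complexes, 5 were higher and 0 lower, Deptor among them, with Rptor, the scaffold of mTORC1, at 0.43 (adjusted p = 0.00145) and Mapkap1, a subunit of mTORC2, at 0.40. Mtor, Mlst8 and Akt1s1 had changes of 0.09, 0.12 and 0.00, none called. In TPM, Mtor at 0.22 and Mlst8 at 0.26 were called higher, as was Mlst8 without standard replicate 1, at 0.18. Of 11 tested substrates and translation factors 2 were higher and 5 lower, and of 20 tested MiT/TFE factors and lysosomal targets 2 were higher and 11 lower, with Sqstm1, an autophagy receptor, at 1.5. In TPM, 7 genes of that list were higher and 9 lower. Tfeb, a master regulator of lysosomal genes, was at -0.32 (adjusted p = 0.00263). The list holds Flcn among its higher and Rragd among its lower genes. In the annotation 17.3% of Sqstm1's exon bases overlap a gene on the other strand at 5.15 FPKM, beside 286.2 FPKM for Sqstm1 (means of 9 libraries). For Tsc2 7.2% overlap Pkd1 on the other strand, at 10.7 FPKM beside 12.6 FPKM for Tsc2. For Ddit3 3.97% overlap Mars on the other strand, at 62.5 FPKM beside 66.9 FPKM for Ddit3. Some reads of these genes are therefore uncertain.

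**Figure D4:**
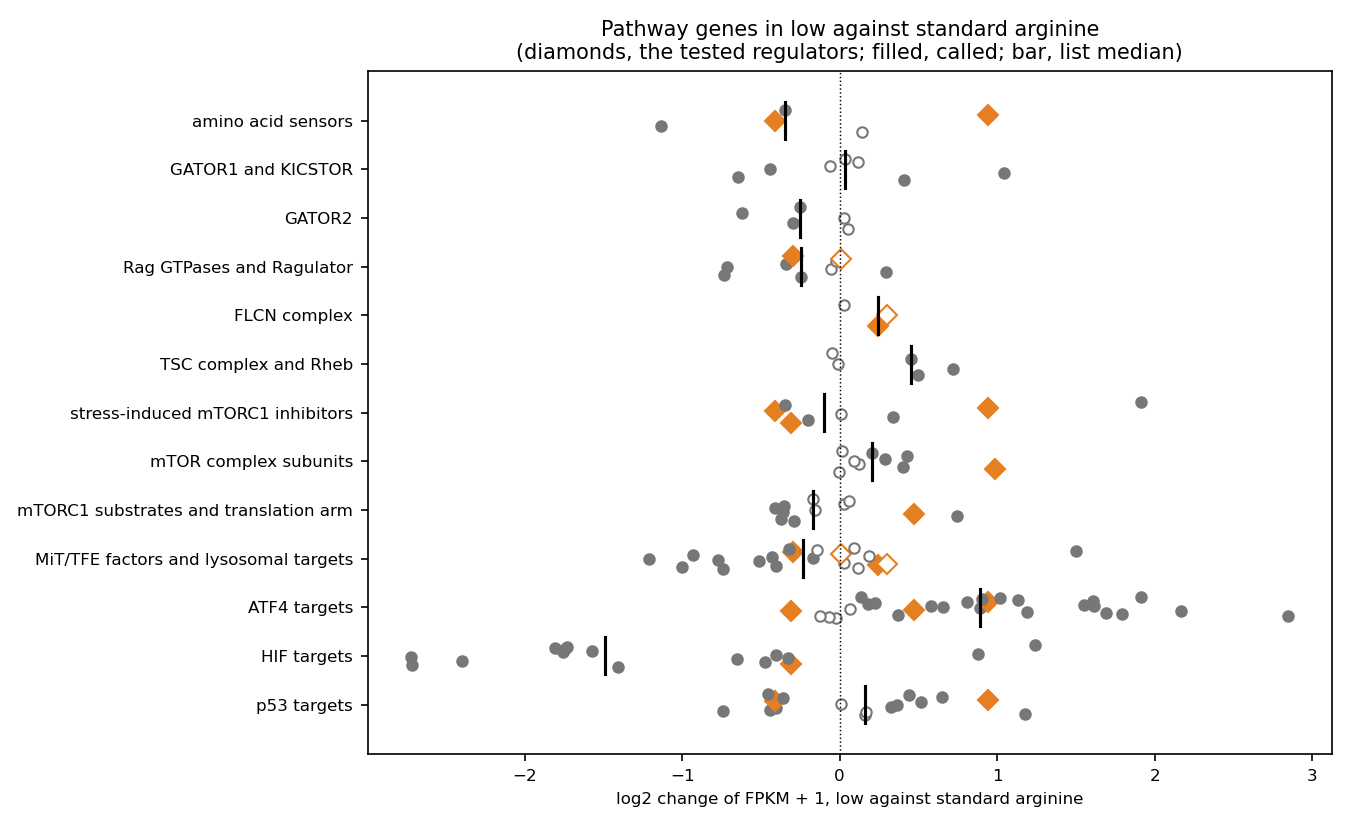
Log2 change in low against standard arginine, on the log2(FPKM + 1) scale, of each tested gene in the pathway lists; points are genes, diamonds the tested regulators, filled symbols called genes and bars list medians. GATOR2 and the Rag and Ragulator list have medians of -0.25 and -0.25, and the TSC and Rheb list and the mTOR subunits of 0.45 and 0.20. The ATF4 targets, listed with Atf4 itself, have a median of 0.89 and the HIF targets of -1.49.

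The directions in low arginine depend in part on scaling. The library size behind the FPKM was larger against the reads in genes in low arginine than in the other media, and its part in this was not tested. In TPM, which sets every library to the same total, the median log2 change of all genes was 0.11, against 0.00 in FPKM, and 61.6% of called genes were higher, against 48.7%. On that scale 6 regulators were higher and 1 lower, the lower one being Sesn1, beside 63.9% of all genes called. No called regulator changed sign there.

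In high arginine the 9 tested regulators stayed close to their levels in standard arginine. Sesn2 had 41.9, 39.0 and 38.9 FPKM in high arginine, within or near the 36.2 to 42.7 FPKM of standard arginine (log2 change -0.01, 95% interval -0.17 to 0.15). Deptor had 3.38, 2.95 and 2.94 FPKM in high arginine, against 3.06 to 3.79 FPKM in standard arginine (-0.12, interval -0.31 to 0.06). Eif4ebp1 had 68.3, 62.7 and 56.4 FPKM in high arginine, against 60.7 to 75.6 FPKM in standard arginine (-0.12, interval -0.32 to 0.09). Sesn1 had 9.2, 10.26 and 11.01 FPKM in high arginine, on both sides of its standard values of 9.46 to 10.2 FPKM (0.03, interval -0.12 to 0.18). Ddit4 had 104.8, 84.5 and 90.4 FPKM in high arginine, against 84.7 to 110.1 FPKM in standard arginine (-0.02, interval -0.25 to 0.22).

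The Rag genes were alike in this respect, with Rragc at 17.8, 18.1 and 17.5 FPKM in high arginine (log2 change 0.08, interval -0.03 to 0.20) and Rragd at 14.95, 16.3 and 16.6 FPKM (0.00, interval -0.13 to 0.14). Flcn is the single regulator whose groups did not overlap, with 8.64, 10.3 and 9.38 FPKM in high arginine, against 10.4 to 10.6 FPKM in standard arginine. The share of all genes whose groups did not overlap was not determined, so this separation is not read as a result about Flcn. Its log2 change of -0.14 was not called (adjusted p = 0.399, interval -0.31 to 0.02). Fnip1 had the widest interval, -0.12 to 0.48, around 0.18, with 5.96, 7.04 and 7.17 FPKM in high arginine. Over the 9 genes the intervals ran from -0.32 to 0.48. No setting tried, voom weights on rebuilt reads included, called any of the 9.

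Of all genes 0.309% were called in high against standard arginine. The pathway lists held 1 call in this contrast, which is not read as a result about the lists. The called gene was Ddit4l, a paralog of Ddit4 that also inhibits mTORC1. It had 5.77, 6.01 and 5.74 FPKM in high arginine, against 4.15, 3.95 and 4.32 FPKM in standard arginine, a log2 change of 0.41 (SE 0.059, adjusted p = 0.0247). The groups were well apart, yet the call was made in 12 of 20 settings and was lost without any 1 of standard replicates 1 and 2 and high replicates 1, 2 and 3, where the change stayed between 0.39 and 0.42. Beside it, Ddit4 differed by -0.02 in the same contrast.

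High against low arginine is also the test of whether both responses differed, because the standard libraries they share drop out. Here 3 of the 9 tested regulators were higher in high arginine (Sesn1, Ddit4 and Rragd) and 4 lower (Sesn2, Deptor, Eif4ebp1 and Flcn), beside 61.5% of all genes called, 32.3% higher and 29.2% lower. In TPM the median of all genes was at -0.10, and 39.5% of called genes were higher, against 52.5% in FPKM. Deptor had 3.09 ± 0.249 FPKM in high arginine and 7.84 ± 0.720 FPKM in low arginine (a log2 change of -1.11, SE 0.084). Sesn2 was at -0.95 (SE 0.074), and with quantile normalization Sesn2 was at -1.12 and Deptor at -1.08. Lower in high arginine were also Eif4ebp1 at -0.59 (SE 0.094) and Flcn at -0.39 (SE 0.073), whereas Sesn1 was at 0.44 (SE 0.067) and Rragd at 0.30 (SE 0.060). Ddit4 was at 0.29 (SE 0.105, adjusted p = 0.0319). That call was lost without low replicate 2 (0.25, adjusted p = 0.102), low replicate 3 (0.30, adjusted p = 0.0664), high replicate 1 (0.21, adjusted p = 0.122) or high replicate 3 (0.31, adjusted p = 0.0538). It was also lost with quantile normalization (0.10, adjusted p = 0.432), in TPM (0.17, adjusted p = 0.148) and with no filter on low values (0.29, adjusted p = 0.0997). Rragc, at 0.08 (adjusted p = 0.226), and Fnip1, at -0.12 (adjusted p = 0.459), were not called.

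The genes whose pattern was most like that of the regulators with the largest changes were found by Pearson's r of log2(FPKM + 1) over the 9 libraries, as a description. The libraries share 3 media, and low arginine set its libraries apart in much of the transcriptome. For Deptor the nearest were Pard3b (0.996), Fbln5 (0.996) and Map7d2 (0.995), and 745 genes exceeded 0.95. For Sesn2 they were Ntn1 (0.999), Scly (0.999) and Sf3b4 (0.998), with 957 genes over 0.95. For Eif4ebp1 they were Mnt (0.992), Dnajb2 (0.991) and Ror2 (0.990), with 238 genes over 0.95. With so many genes above that value, the nearest ones stand out little.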

How the data were processed

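RNA from 9 MIN6 libraries was sequenced, 3 per medium, with groups and replicate numbers taken from the labels. The authors deposited FPKM per gene and library with each gene's length, per the file headers. Libraries came from total RNA with a directional kit, per the labels' protocols. CASAVA 1.8, HISAT2 2.0.5 and featureCounts 1.5.0-p3 are named, per the submitters' processing notes. How strand was set in counting is not stated there. Those notes name mm9, yet of 54495 gene IDs also in GENCODE M21, 98.33% have the start and end given there for GRCm38, so coordinates are GRCm38. FPKM times length gave whole reads in 100.0% of values, within 0.01 reads. These served for depth and for voom weights; FPKM is not a count, and no count model was the main test.

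Genes at 1 FPKM or more in at least 3 libraries were tested in limma 3.58.1 under R 4.3.3 on log2(FPKM + 1), in a single fit of 9 libraries with medium as its term, 6 residual degrees of freedom, a trended prior variance and two-sided p-values. Ratios and Castor1 had exact permutation tests. All regulators were named, with up to 4 called partners per list and contrast whose groups did not overlap, a fixed set of complex partners, and Atf4, Ddit3 and Trib3. Some genes that this rule names are not reported here. Genes and lists were chosen with earlier results of these data known. The fit was also run on simulated reads with known changes in few genes. As most genes were called in low arginine, that run does not test the scaling of these data. Alternatives were other pseudocounts and filters, TPM and quantile scaling, other variance models and weights, a block on replicate number, an added fold of 1.5 and the omission of each library.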

Additional observations from a re-analysis of the deposited data

How the results depend on the processing

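Under the alternatives run, 534 of 564 log2 changes of regulators kept their side of the threshold, 24 lost and 6 gained the call. In 21 the sign turned, all of them changes called neither before nor after. In low against standard arginine, TPM left 1 regulator lower, not 3. Requiring a fold of at least 1.5 as well left 2 regulators called, 2 higher and 0 lower, among 2379 genes in all; in high against low arginine it left 3 called and 0 higher, among 2390 genes. Both follow from the added threshold. Leaving out 1 library gave 3 to 5 regulators higher and 2 to 3 lower in low against standard arginine, and 2 to 3 higher and 4 lower in high against low arginine.

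For all genes in high against standard arginine, 38 were called. There were 6 with no filter, 0 with only the 2 groups compared, 1323 with array weights, 74 with voom weights on rebuilt reads and 6 with the fold threshold, and leaving out 1 library gave 0 to 61; the cause was not tested. Without standard replicate 2 or high replicate 3 there were 0, without high replicate 2 there was 1, without standard replicate 1 there were 10 and without standard replicate 3 there were 61. Without low replicate 3, which acts only through the shared spread, there were 13. With a replicate block there were 88 (46 higher, 42 lower), and the block changed no call of a regulator; in low against standard arginine Atf4, at -0.13, was called with it (adjusted p = 0.0146). Correlations of deviations from the group means exceeded 0.1 in 6 of 9 same-number pairs (-0.04 to 0.24) and in 2 of 18 other pairs (-0.26 to 0.14), a hint of a shared replicate effect. As not every same-number pair exceeded 0.1, and no label ties the numbers to a shared batch, the block stayed an alternative. The values of Castor1 rest on 11 to 31 reads a library, so counting error is large there.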
